A study of Mus musculus with 12 samples.

Results

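The genes described are the protein-coding members of cytochrome P450 (Cyp) families 1 to 4 in mouse liver. They were taken from the deposited expression table by gene symbol, a symbol of Cyp, a family number from 1 to 4 and a subfamily letter. Of 81 genes with such a symbol, Cyp2e1, Cyp1a2, Cyp2f2, Cyp2c70, Cyp4a10 and Cyp4a14 were left out, which gave 75 of the 54532 genes in the table. Livers came from Apoe knockout mice, and every animal of both groups carried that genotype. The control group (6 libraries, numbered 1 to 6) received Gfp-AAV, an adeno-associated viral vector for green fluorescent protein. The Rspo2-AAV group (6 libraries, numbered 1, 2, 4, 5, 6 and 7) received a vector for R-spondin 2, a secreted protein that potentiates Wnt signalling at the cell surface. The series title names hepatic steatosis and AMPK-ACC signalling. Promoter, dose, age, sex and time after injection are not given in the labels.

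Cytochromes P450 are heme enzymes of the endoplasmic reticulum that oxidise drugs, steroids, bile acids and fatty acids with electrons from P450 reductase. Families 1 to 3 act mostly on foreign compounds and steroids, and family 4 mostly on fatty acids. In liver, several are made in the hepatocytes around the central vein, where Wnt signalling is strongest, and several mouse members differ between the sexes because growth hormone is secreted in a different pattern in males and females.

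Expression was given as FPKM, in which read numbers are divided by gene length and by a scaling size of each library. Levels of different genes can thus be compared per length. Whole reads recovered from these values numbered between 14295644 and 22195576 per library. The scaling size was not this read total. It was 25238000 for Rspo2-AAV 1, above its 22195576 reads, and 15361700 for Rspo2-AAV 2, below its 17796257 reads. Rspo2 was at 0 FPKM in all 6 control libraries and between 49.9 and 573 FPKM in the Rspo2-AAV libraries, with the lowest level in Rspo2-AAV 2. Apoe was measured at 38.8 to 149 FPKM in controls, and since the labels do not say which part of it is deleted this does not check the genotype. Control 3 held 42.0 FPKM of Xist, the transcript that silences one X chromosome in females, Rspo2-AAV 1 held 28.0, Rspo2-AAV 2 held 5.57, and no other library exceeded 0.0186. The summed level of the Y-linked genes Ddx3y, Kdm5d, Eif2s3y and Uty was lowest in Rspo2-AAV 1 (0.0764 FPKM) and control 3 (1.28), 17.8 for Rspo2-AAV 2, and 21.4 to 30.4 for the remaining 9. Those 3 libraries stand apart in the sex-biased P450 genes as well, so results that rest on them are given with and without them. The labels do not say that each library is a separate animal, so the p-values measure the spread between these libraries. In bulk liver RNA, fewer cells of a type and less RNA per cell cannot be told apart.

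Over all 12 libraries, few P450 genes of these families were called as changed: Cyp2a5 rose, and Cyp2a12 and Cyp2j5 fell. Of the 75 genes, 50 had a mean of at least 0.5 FPKM over the 12 libraries and were tested, and 8 were at 0 in every library. The test, limma on log2(FPKM + 0.5) with Benjamini-Hochberg adjustment over all 13447 genes tested, called 1 of the 50 higher in Rspo2-AAV livers, against 2.55% of all genes. It called 2 of the 50 lower, against 2.65% of all genes. The share of P450 genes called was thus near the background in both directions in this fit. The median log2 change of the 50 genes was -0.09, beside 0.00 over all genes tested. Several genes that were not called had log2 changes of larger size than that of Cyp2j5. Without control 3 the calls were 5 higher and 6 lower, with 3.13% and 3.66% of all genes. In that fit only Rspo2-AAV 1 and 2 held Xist at or above 1 FPKM. Part of its vector contrast and Xist thus cannot be told apart. The summed level of all 75 genes was 4323 to 5140 FPKM in controls (median 4832) and 3760 to 7043 in Rspo2-AAV libraries (median 4694), so the groups overlapped. The top of that range came from Rspo2-AAV 1 (7043) and Rspo2-AAV 2 (6712). As a share of the FPKM of all protein-coding genes, Rspo2-AAV 1 was at 2.21% and Rspo2-AAV 2 at 1.29%, beside 1.13% to 1.42% in controls. The sum in Rspo2-AAV 2 was thus inside the control range on that scale.

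**Figure D1:**
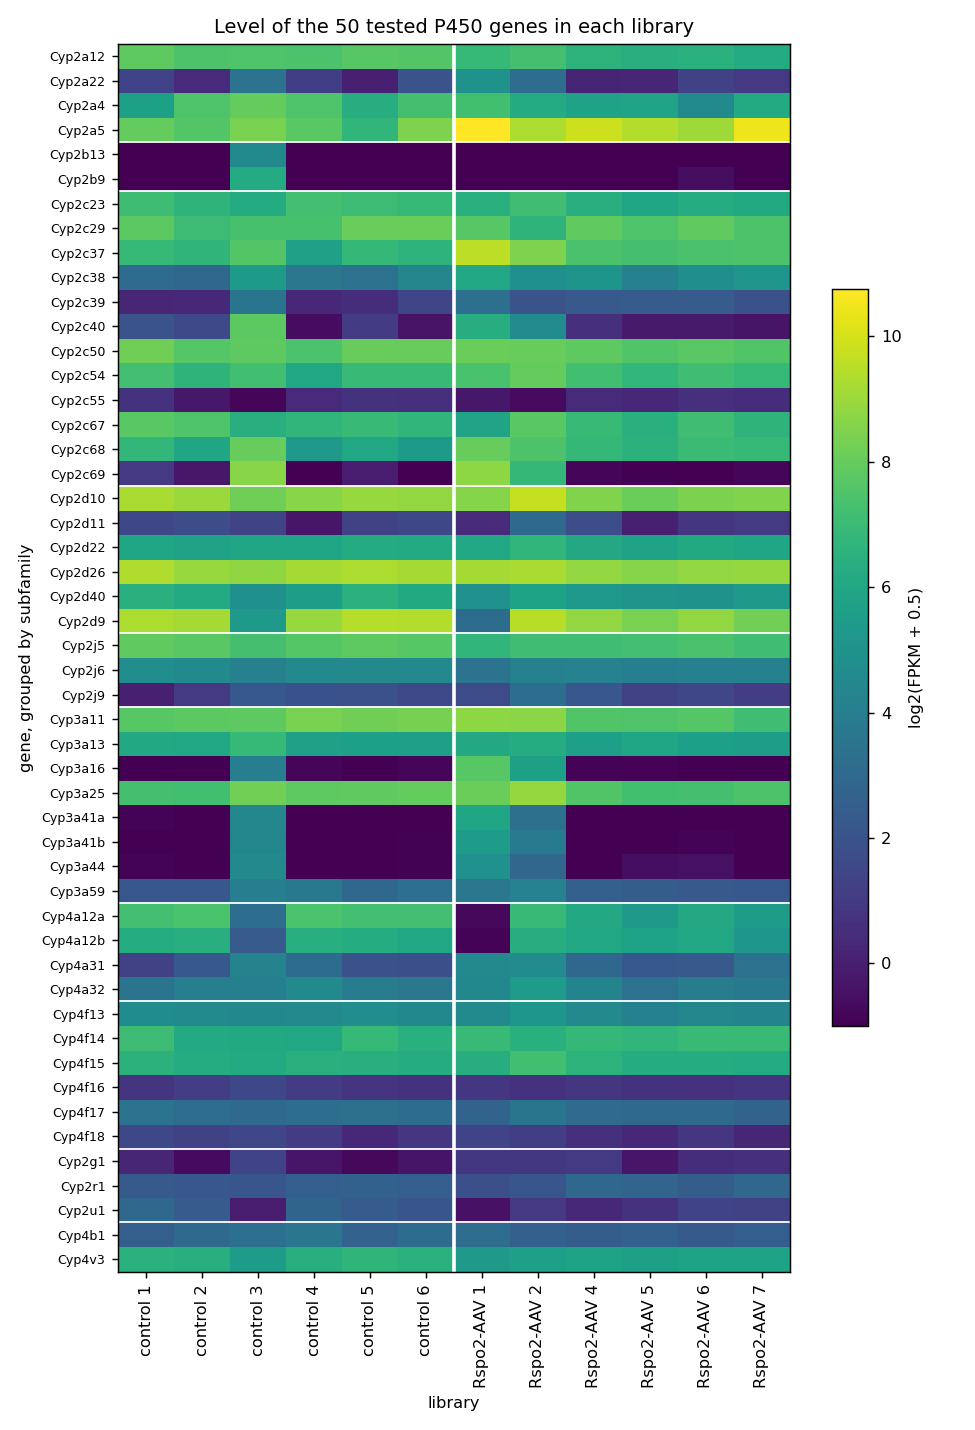
Level of the 50 tested P450 genes (rows, grouped by subfamily) in each of the 12 libraries (columns), as log2(FPKM + 0.5). Cyp2a5 is brighter in all 6 Rspo2-AAV libraries, and control 3, Rspo2-AAV 1 and Rspo2-AAV 2 differ from the other 9 libraries at Cyp2c40, Cyp2c69, Cyp3a16, Cyp3a41a, Cyp3a41b and Cyp3a44.

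The Cyp2a genes lie together on chromosome 7 and moved apart from each other. Cyp2a5 (ENSMUSG00000005547, GRCm38 chr7:26835305-26843548, plus strand), a coumarin and nicotine hydroxylase, ranged from 105 to 353 FPKM in controls (median 235) and from 545 to 1718 in Rspo2-AAV libraries (median 797). Every Rspo2-AAV library was above every control, a separation found in this direction for 1.62% of all genes tested. The mean was 241.8 ± 91.0 FPKM (SD, n = 6) against 986 ± 478 (SD, n = 6), a ratio of 4.08 and a log2 change of 1.99 ± 0.34 (SE; limma adjusted p = 0.00705). It had the highest mean level of the 75 genes over all 12 libraries, but not in controls. In the 5 controls with Xist under 1 FPKM, Cyp2d26 was at 485 to 659 FPKM. The change was 1.99 (adjusted p = 0.00731) in the 9 libraries with Xist under 1 FPKM and 2.05 (adjusted p = 0.0278) among the numbers 4 to 7. Among the numbers 1 to 3, with 3 control and 2 Rspo2-AAV libraries, it was 2.05 with an adjusted p of 0.478, in a fit where limma called 0 of the 13447 genes.

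Cyp2a4, a testosterone 15-alpha-hydroxylase and the closest relative of Cyp2a5, did not pass the test and had the opposite sign. Its level was 51.4 to 252 FPKM in controls (median 170) and 24.2 to 147 in Rspo2-AAV libraries (median 65.1), a log2 change of -1.08 ± 0.44 (limma adjusted p = 0.175). This change was -1.26 ± 0.44 (limma adjusted p = 0.0915) in the 9 libraries with Xist under 1 FPKM and -1.44 (adjusted p = 0.0621) among the numbers 4 to 7. The groups overlapped through control 1 and control 5 on the low side and Rspo2-AAV 1 on the high side. The ratio of Cyp2a5 to Cyp2a4 was 1.07 to 4.94 in controls and 8.66 to 22.5 in Rspo2-AAV libraries, with no overlap. Of all stretches of 75 bases in the Cyp2a4 transcript, 21.0% also occur in a Cyp2a5 transcript, so the split of reads between these genes is uncertain. The summed level of both was 184 to 580 FPKM in controls and 569 to 1865 in Rspo2-AAV libraries, where Rspo2-AAV 6 (569) lay below control 3 (580). Apart from control 3, the highest control was control 6 (510), below every Rspo2-AAV library.

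The promoters of this pair are shown because the genes are nearly identical there while one passed the test and the other did not; the difference between their changes was not tested. Each line is the 250 bases before the RefSeq transcript start (GRCm38.p6), 5′ to 3′, with capitals where the aligned sequences differ.
Cyp2a5: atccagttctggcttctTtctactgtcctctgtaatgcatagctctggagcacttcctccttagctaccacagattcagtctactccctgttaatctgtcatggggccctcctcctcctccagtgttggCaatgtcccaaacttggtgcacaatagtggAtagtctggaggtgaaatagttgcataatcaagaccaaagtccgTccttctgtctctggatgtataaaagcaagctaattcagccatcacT
Cyp2a4: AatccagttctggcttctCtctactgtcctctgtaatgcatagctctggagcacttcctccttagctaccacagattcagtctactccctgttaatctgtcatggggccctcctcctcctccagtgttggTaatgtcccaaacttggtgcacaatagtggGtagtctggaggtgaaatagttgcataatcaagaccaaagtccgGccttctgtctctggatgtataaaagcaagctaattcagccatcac
The Cyp2a5 window is chr7:26835089-26835338 and the Cyp2a4 window chr7:26306942-26307191, both on the plus strand. They are identical at 97.6% of alignment columns, with 1 base at an end of each left without a partner. The differences, with the Cyp2a5 base first and positions counted from 1 at the 5′ end of its window, are T18C, C130T, A160G and T204G. Both hold the TATA box letters TATAAA, at -29 in Cyp2a5 and -28 in Cyp2a4 relative to the start.

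Cyp2a12 (ENSMUSG00000060407, chr7:27029081-27037375, plus strand), a steroid hydroxylase, fell. Its level was 169 to 229 FPKM in controls (median 188) and 73.6 to 154 in Rspo2-AAV libraries (median 94.1). All 6 Rspo2-AAV libraries were below all 6 controls, as for 1.62% of all genes tested in this direction, and Rspo2-AAV 2 was the highest of them. The mean went from 192.8 ± 22.1 to 102.8 ± 29.1 FPKM (SD, n = 6 each), a log2 change of -0.94 ± 0.17 (limma adjusted p = 0.00749). It was -1.17 ± 0.12 (adjusted p = 0.000444) in the 9 libraries with Xist under 1 FPKM. Without Rspo2-AAV 4 and Rspo2-AAV 5 the change was -0.87 and the adjusted p 0.0571. Cyp2a22, the remaining gene of the subfamily, was at 0.532 to 10.8 FPKM in controls and 0.652 to 31.0 in Rspo2-AAV libraries, with its highest levels in Rspo2-AAV 1, control 3 and Rspo2-AAV 2 (8.77).

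**Figure D2:**
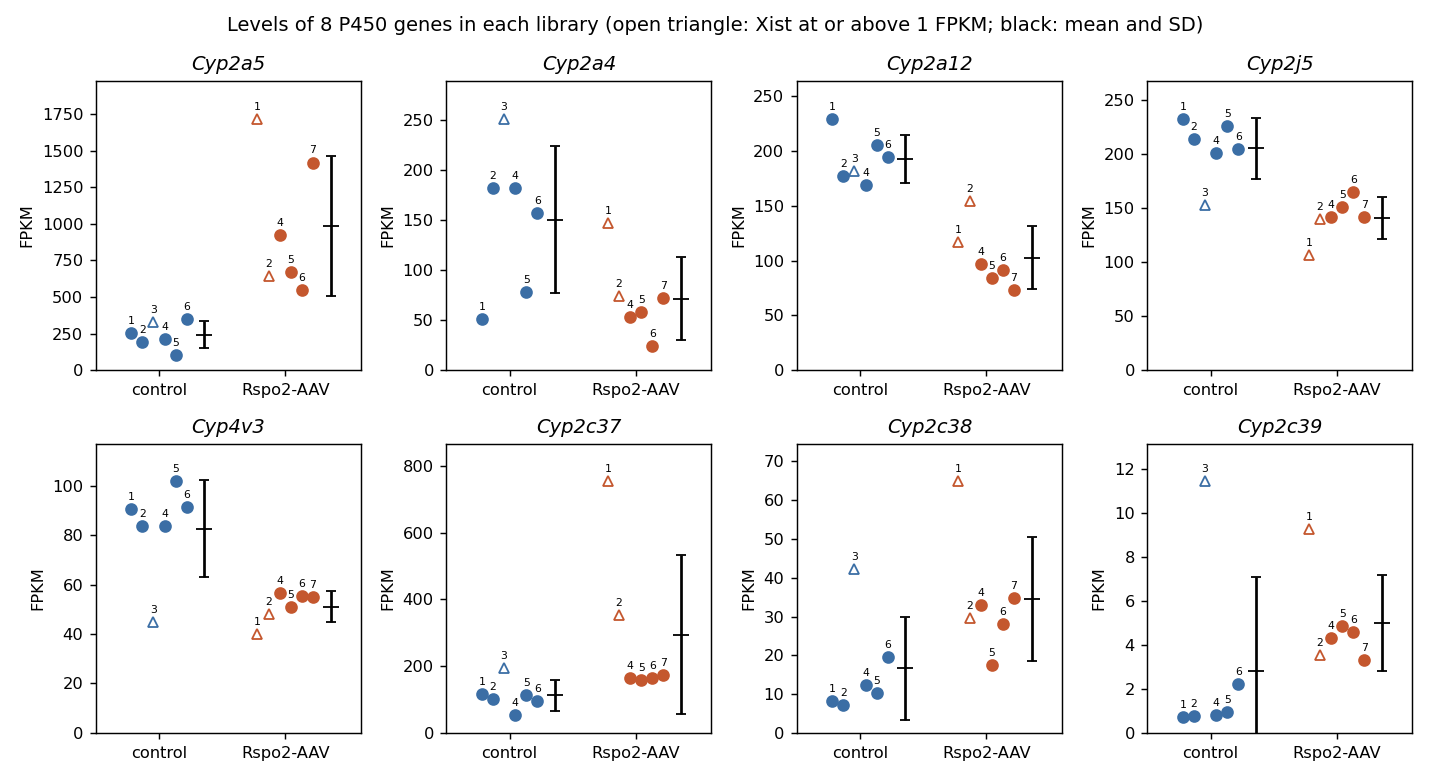
FPKM of 8 P450 genes in each library (points numbered by library), with the mean and SD of each group in black and open triangles for the 3 libraries with Xist at or above 1 FPKM. Cyp2a5 and Cyp2a12 show no overlap between groups; control 3 lies with the Rspo2-AAV libraries for Cyp4v3, Cyp2c38 and Cyp2c39. The lower error bar of Cyp2c39 in controls passes 0 and is clipped at the axis.

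Of the 5 Cyp2b genes, only Cyp2b9 and Cyp2b13, a pair of female-biased genes, had a mean high enough to be tested, and neither passed. Cyp2b9 stood at 74.0 FPKM (2536 reads) in control 3, at 0.183 FPKM (5 reads) in Rspo2-AAV 6 and at 0 in the other 10 libraries (log2 change -1.13 ± 1.06, limma adjusted p = 0.590). Cyp2b13 had 838 reads (24.5 FPKM) in control 3 and 0 in the other 11 libraries. In Rspo2-AAV 1 and Rspo2-AAV 2, which also held Xist, both genes were at 0 reads. With a floor of 3 reads over those 2 libraries, Cyp2b9 was at least 1880-fold lower there than in control 3 and Cyp2b13 at least 621-fold lower, a comparison of single libraries with no test. Floors and intervals of this kind cover counting error only.

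Cyp2b10, the phenobarbital-inducible target of the nuclear receptor CAR, had 3, 1, 70, 8, 12 and 17 reads in controls 1 to 6 and 0 reads in all 6 Rspo2-AAV libraries. Its mean was under 0.5 FPKM and so it was not tested in the main comparison. With the floor of 3 reads over the Rspo2-AAV group it was at least 36.7-fold lower there. Without control 3 this bound was 16.5-fold, and in the 9 libraries with Xist under 1 FPKM 9.92-fold. When all genes above 0 in any library were fitted, its limma log2 change was -0.79 with an adjusted p of 0.227. The reads are few, and the change on the log2(FPKM + 0.5) scale understates low genes.

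The promoters of Cyp2b9 and Cyp2b13 are printed since both genes were read in the same library and share almost the whole window. Capitals mark the bases that differ.
Cyp2b9: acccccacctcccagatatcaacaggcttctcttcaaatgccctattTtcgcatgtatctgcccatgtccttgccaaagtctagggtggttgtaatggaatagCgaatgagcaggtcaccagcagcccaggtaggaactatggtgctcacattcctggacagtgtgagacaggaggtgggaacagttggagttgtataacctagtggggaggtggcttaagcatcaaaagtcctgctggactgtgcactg
Cyp2b13: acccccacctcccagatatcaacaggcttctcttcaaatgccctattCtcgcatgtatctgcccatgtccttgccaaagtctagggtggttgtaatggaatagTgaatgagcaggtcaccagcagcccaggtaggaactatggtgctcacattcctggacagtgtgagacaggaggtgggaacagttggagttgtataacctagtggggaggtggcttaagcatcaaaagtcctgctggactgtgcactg
These are chr7:26173159-26173408 and chr7:26061245-26061494 (GRCm38.p6, plus strand), identical at 99.2% of positions. The differences are T48C and C104T, with the Cyp2b9 base first and positions from 1 at the 5′ end. The promoter of Cyp2b10 was identical to either at 68.1% of aligned columns.

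The Cyp2c genes, which code for arachidonic acid epoxygenases and drug hydroxylases, lie on chromosome 19. None of the 12 tested was called over all 12 libraries. Cyp2c50, which had the highest mean of the subfamily, was at 171 to 289 FPKM in controls and 188 to 276 in Rspo2-AAV libraries (log2 change -0.05 ± 0.16, limma adjusted p = 0.894). Cyp2c37, Cyp2c38, Cyp2c39 and Cyp2c68 had higher medians in Rspo2-AAV livers. Cyp2c37 (ENSMUSG00000042248, chr19:39992424-40012243), an arachidonic acid hydroxylase, was at 52.5 to 194 FPKM in controls (median 108) and 158 to 754 in Rspo2-AAV libraries (median 170). Only control 3 overlapped the Rspo2-AAV range, and Rspo2-AAV 1 (754) and Rspo2-AAV 2 (354) were far above the rest. The log2 change was 1.2 ± 0.40 (adjusted p = 0.104) over 12 libraries and 0.83 ± 0.21 (adjusted p = 0.0329) over the 9.

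Cyp2c38 was at 7.29 to 42.3 FPKM in controls (median 11.2) and 17.6 to 64.8 in Rspo2-AAV libraries (median 31.2). Its log2 change was 1.21 ± 0.40 (limma adjusted p = 0.101) over 12 libraries, 1.53 (adjusted p = 0.0130) without control 3, and 1.30 ± 0.29 (adjusted p = 0.0181) over the 9. Control 3 held the highest control level and lay among the Rspo2-AAV libraries. Cyp2c39, a retinoic acid hydroxylase, was at 0.706 to 11.5 FPKM in controls (median 0.864) and 3.31 to 9.29 in Rspo2-AAV libraries (median 4.46). Apart from control 3, the highest control was 2.21, below every Rspo2-AAV library. Its log2 change was 1.30 ± 0.50 (adjusted p = 0.152) over 12 libraries, 1.80 (adjusted p = 0.00296) without control 3 and 1.66 ± 0.24 (adjusted p = 0.00213) over the 9. Cyp2c68 was at 38.5 to 258 FPKM in controls (median 61.3) and 93.2 to 262 in Rspo2-AAV libraries (median 123), with a log2 change of 0.90 ± 0.42 (adjusted p = 0.237) over 12, 1.25 (adjusted p = 0.0296) without control 3 and 0.95 (adjusted p = 0.0487) over the 9. These 3 genes thus passed the test once control 3 was left out, which left Xist at or above 1 FPKM only in Rspo2-AAV libraries.

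In the other direction, Cyp2c23, an epoxygenase of arachidonic acid also known from kidney, was at 75.3 to 149 FPKM in controls (median 125) and 59.7 to 143 in Rspo2-AAV libraries (median 80.8). Control 3 was the lowest control and Rspo2-AAV 2 the highest Rspo2-AAV library. The log2 change was -0.46 ± 0.21 (limma adjusted p = 0.236) over 12 libraries and -0.79 ± 0.14 (adjusted p = 0.00734) over the 9. Cyp2c29 (132 to 279 against 99.9 to 236 FPKM), Cyp2c54 (65.5 to 153 against 111 to 247) and Cyp2c67 (85.4 to 210 against 57.7 to 211) overlapped widely between controls and Rspo2-AAV libraries. None of these 3 passed the test in the 12 libraries, in the 9 or among the numbers 4 to 7.

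The Cyp2d genes on chromosome 15 are relatives of the human debrisoquine hydroxylase. They include Cyp2d26, Cyp2d9 and Cyp2d10, which had the highest means after Cyp2a5 over the 12 libraries. None of the 6 tested was called over 12 libraries. Cyp2d26 was at 449 to 659 FPKM in controls (median 571) and 397 to 613 in Rspo2-AAV libraries (median 467), a log2 change of -0.18 ± 0.15 (limma adjusted p = 0.516). It was -0.38 ± 0.12 (adjusted p = 0.0683) over the 9 libraries with Xist under 1 FPKM, where the groups did not overlap, and -0.40 (adjusted p = 0.0293) among the numbers 4 to 7. Cyp2d10 was at 295 to 603 in controls and 275 to 829 in Rspo2-AAV libraries (adjusted p = 0.756). Rspo2-AAV 2 was the highest library and control 3 the lowest control for Cyp2d10. In the 9 libraries its log2 change was -0.54 ± 0.14 (adjusted p = 0.0365), and among the numbers 4 to 7 -0.42 (adjusted p = 0.0689). Cyp2d40 was at 29.1 to 89.3 FPKM in controls (median 71.1) and 30.6 to 55.0 in Rspo2-AAV libraries (median 35.4). Control 3 was its lowest library. The log2 change of Cyp2d40 was -0.72 ± 0.26 (adjusted p = 0.124) over 12, -0.93 (adjusted p = 0.0134) without control 3 and -1.0 ± 0.18 (adjusted p = 0.00664) over the 9.

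Cyp2j5 (ENSMUSG00000052520, chr4:96628773-96664154, minus strand), an arachidonic acid epoxygenase of liver and kidney, fell by a small amount. Controls ranged from 153 to 232 FPKM (median 209) and Rspo2-AAV libraries from 107 to 165 (median 141). Control 3 (153) was the only control inside the Rspo2-AAV range. The log2 change was -0.54 ± 0.13 (limma adjusted p = 0.0374), and -0.53 ± 0.10 (adjusted p = 0.00728) over the 9 libraries. This call was close to the threshold. It was lost (adjusted p up to 0.0868) when any single library other than control 3 or Rspo2-AAV 2 was left out, and with the FPKM rescaled to an equal sum in each library (adjusted p = 0.0888). Its neighbour Cyp2j6 was at 16.6 to 26.8 FPKM in controls and 10.5 to 18.2 in Rspo2-AAV libraries, a log2 change of -0.48 ± 0.15 (adjusted p = 0.0803) over 12, -0.56 (adjusted p = 0.0322) without control 3 and -0.45 ± 0.09 (adjusted p = 0.00919) over the 9.

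Among the other Cyp2 genes, Cyp2r1, a vitamin D 25-hydroxylase, was at 3.88 to 5.83 FPKM in controls and 3.18 to 7.44 in Rspo2-AAV libraries (log2 change 0.15 ± 0.19, limma adjusted p = 0.702). Its 2 lowest Rspo2-AAV libraries were 1 and 2. Cyp2u1, a fatty acid hydroxylase, was at 0.428 to 7.08 FPKM in controls (median 4.71) and 0.234 to 2.04 in Rspo2-AAV libraries (median 1.28). Control 3 was the only control below 3.92. The log2 change was -1.39 ± 0.47 (adjusted p = 0.106) over 12, -1.83 (adjusted p = 0.00423) without control 3 and -1.60 ± 0.23 (adjusted p = 0.00230) over the 9.

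The Cyp3a genes, the main drug and bile acid hydroxylases inducible through PXR, gave no call over 12 libraries among 8 tested. Cyp3a11 (chr5:145854426-145879964, minus strand), the most abundant of them, was at 209 to 331 FPKM in controls (median 260) and 142 to 424 in Rspo2-AAV libraries (median 194), a log2 change of -0.14 ± 0.28 (limma adjusted p = 0.812). The Rspo2-AAV libraries fell on both sides of the controls: 1 and 2 were at 424 and 421, above every control, and 4 to 7 were at 142 to 201, below every control. Within the numbers 1 to 3 the log2 change was 0.95, and within the numbers 4 to 7 it was -0.82 (adjusted p = 0.00861). In the 9 libraries with Xist under 1 FPKM it was -0.60 ± 0.18 with an adjusted p of 0.0507, so Cyp3a11 was not called there. The difference between these values was not tested, and in the Rspo2-AAV group the numbers under 4 are also the libraries with Xist, so number and Xist cannot be told apart. Cyp3a25 was at 144 to 304 FPKM in controls, 275 and 477 in Rspo2-AAV 1 and 2, and 147 to 187 in 4 to 7. Only Rspo2-AAV 2 lay outside the control range. The log2 change was 0.01 over 12 libraries and -0.54 among the numbers 4 to 7 (limma adjusted p = 0.0171). In the 9 libraries with Xist under 1 FPKM the groups overlapped for Cyp3a25 and its log2 change was -0.27 ± 0.19 (adjusted p = 0.406). Cyp3a13, also found in intestine, was at 49.4 to 115 FPKM in controls and 46.6 to 76.4 in Rspo2-AAV libraries, with its highest level in control 3.

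In family 4, which hydroxylates the end carbon of fatty acids, no gene passed the test over 12 libraries. Cyp4a12a, the androgen-dependent omega hydroxylase of male mice, was at 9.11 to 170 FPKM in controls (median 152) and 0.0982 to 122 in Rspo2-AAV libraries (median 55.3), a log2 change of -1.77 ± 1.17 (limma adjusted p = 0.416). Rspo2-AAV 1 (0.0982) and control 3 (9.11) were the lowest of all, while Rspo2-AAV 2 reached 122. The remaining 5 controls were at 149 to 170 and Rspo2-AAV 4 to 7 at 39.4 to 68.4, with no overlap. In those 9 libraries the log2 change of Cyp4a12a was -1.57 ± 0.17 (adjusted p = 0.000512), and among the numbers 4 to 7 it was -1.56 (adjusted p = 0.00529). Cyp4a12b, its near copy, went from 63.5 to 84.6 in the same 5 controls to 35.2 to 66.2 in Rspo2-AAV 4 to 7 (log2 change -0.50 ± 0.18, adjusted p = 0.109). These genes share 41.3% of the 75-base stretches of Cyp4a12b, so the split of reads between them is uncertain.

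Cyp4v3 (chr8:45304944-45333216, minus strand), whose human counterpart is mutated in a crystalline retinal dystrophy, was just outside the threshold. Controls other than control 3 were at 83.7 to 102 FPKM, control 3 at 44.9, and Rspo2-AAV libraries at 40.2 to 56.6 (median 53.1). Thus control 3 alone overlapped the Rspo2-AAV range. The log2 change of Cyp4v3 was -0.65 ± 0.18 (limma adjusted p = 0.0535) over 12 libraries, -0.82 (adjusted p = 0.00210) without control 3 and -0.72 ± 0.09 (adjusted p = 0.00120) over the 9. Cyp4f14, a leukotriene hydroxylase and the most abundant Cyp4f gene, was at 64.4 to 131 FPKM in controls and 88.0 to 123 in Rspo2-AAV libraries (log2 change 0.34 ± 0.18, adjusted p = 0.304). Cyp4f15 was at 72.6 to 91.9 FPKM in controls and 73.2 to 145 in Rspo2-AAV libraries, with Rspo2-AAV 2 the highest.

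Family 1 was low once Cyp1a2 is set aside. Cyp1b1, a steroid hydroxylase mostly of other tissues, was at 0.267 to 0.494 FPKM in controls and 0.0391 to 0.471 in Rspo2-AAV libraries. Cyp1a1, the classic target of the aryl hydrocarbon receptor, was at 0.0982 to 0.531 FPKM in controls and 0.0467 to 0.305 in Rspo2-AAV libraries. Both were below the level tested. With them, 17 genes had a mean above 0 and under 0.5 FPKM, Cyp2b10 among them, and Cyp2b23, Cyp2c66, Cyp2j7, Cyp2j12, Cyp2w1, Cyp4a29, Cyp4a30b and Cyp4x1 were at 0 in every library.

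Leaving out the 3 libraries with Xist gave more calls. With 5 controls (1, 2, 4, 5 and 6) and 4 Rspo2-AAV libraries (4 to 7), limma called 5 of 50 higher, with 6.00% of all genes, and 10 of 50 lower, with 6.75% of all genes. The filter stayed that of all 12 libraries, so some of the 50 had almost no reads here and could hardly be called. Cyp2b13 was at 0 in these 9 libraries, and Cyp2b9, Cyp3a16, Cyp3a41a, Cyp3a41b and Cyp3a44 were at most at 0.210 FPKM. The higher genes were Cyp2a5, Cyp2c37, Cyp2c38, Cyp2c39 and Cyp2c68. The lower genes were Cyp2a12, Cyp2c23, Cyp2d9, Cyp2d10, Cyp2d40, Cyp2j5, Cyp2j6, Cyp2u1, Cyp4a12a and Cyp4v3. Those not called over all 12 libraries were chosen for description after their values were seen. No Rspo2-AAV library numbered under 4 remains in that set while controls 1 and 2 do, so part of the vector contrast and the number cannot be told apart there. Among the numbers 4 to 7 alone the calls were 4 higher (6.34% of all genes) and 12 lower (6.92% of all genes), and 12 genes were called in the same direction in both fits. Cyp2c38 (adjusted p = 0.0609), Cyp2d9 and Cyp2d10 were not called among the numbers 4 to 7, and Cyp2d26, Cyp3a11, Cyp3a25 and Cyp3a59 (-0.95, adjusted p = 0.0207) were called there but not over the 9. The libraries of these fits overlap, so this is no independent repeat. With all 12 libraries and a term for the Xist libraries, 2 genes were called higher (3.74% of all genes) and 3 lower (4.28% of all genes).

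Other fits stayed nearer to the first count. A term for the number set (1 to 3 against 4 to 7) gave 2 higher and 3 lower, with 3.09% and 3.38% of all genes. The number as a block gave 3 higher and 2 lower, with 1.08% and 1.14% of all genes, and under it neither Cyp2a12 (limma adjusted p = 0.0703) nor Cyp2j5 (0.108) was called. Control 3 and Rspo2-AAV 7 have no library of the same number in the other group, so under the block they add nothing to the contrast. Limma-voom on the recovered reads gave 1 higher and 3 lower (2.39% and 2.57% of all genes), with Cyp4v3 as the added gene. Rescaling to an equal sum gave 1 and 1 (1.48% and 1.36% of all genes), and fitting every gene above 0 in any library 1 and 1 (0.665% and 0.736% of 29332 genes).

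**Figure D3:**
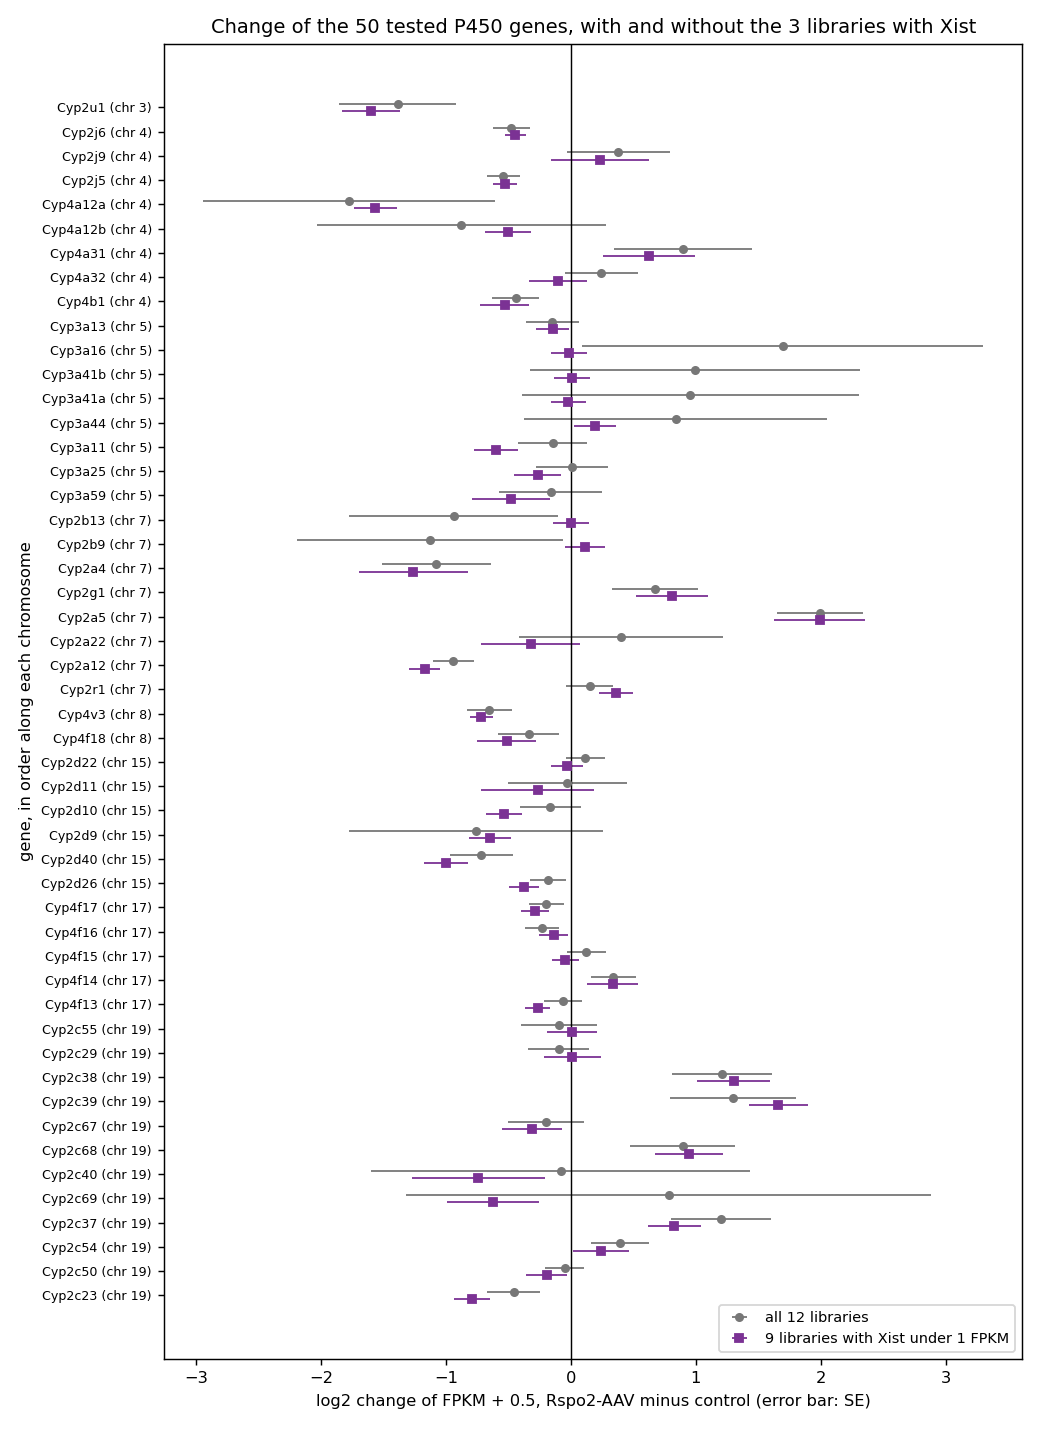
Log2 change of FPKM + 0.5, Rspo2-AAV minus control, for the 50 tested genes in order along each chromosome, with SE bars, over all 12 libraries (grey circles) and over the 9 libraries with Xist under 1 FPKM (purple squares). The bars of Cyp2c69, Cyp3a16, Cyp3a41a, Cyp3a41b, Cyp2d9 and Cyp4a12a are much shorter over the 9 libraries, and Cyp2a5 stays near 1.99.

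Of 10 female-biased members, 6 were high in the 3 libraries with Xist and near 0 in the other 9. The remaining 4, Cyp2a4, Cyp2g1, Cyp2b9 and Cyp2b13, were not. Cyp2c69, a female-biased gene, reached 431 FPKM for Rspo2-AAV 1, 406 for control 3 and 114 for Rspo2-AAV 2, against at most 1.45 in the other 9 libraries. Cyp3a16, which is also transcribed in fetal and young liver, was at 205, 15.9 and 49.97 FPKM in these libraries in the same order and at or below 0.0603 elsewhere. Cyp2c40 followed with 78.5, 218 and 25.0 FPKM, and at most 3.48 elsewhere. Cyp3a41a, Cyp3a41b and Cyp3a44 spanned 29.9 to 61.6 FPKM for Rspo2-AAV 1, 20.3 to 22.6 for control 3 and 6.90 to 13.6 for Rspo2-AAV 2, with at most 0.210 in the others. Cyp3a41a and Cyp3a41b share 91.1% of their 75-base stretches and cannot be separated well. Both groups thus hold high and near-zero libraries for these genes, and none of them passed the test (adjusted p from 0.591 for Cyp3a16 to 0.982 for Cyp2c40).

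Cyp2a4 reached 182 FPKM and Cyp2g1, an olfactory-tissue P450, 1.5 FPKM in the other 9 libraries, above their levels in Rspo2-AAV 2 (74.0 and 1.37). Cyp2b9 and Cyp2b13 were at 0 in Rspo2-AAV 1 and 2.

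For the 6 genes, Rspo2-AAV 2 lay below Rspo2-AAV 1 and above the other 9 libraries. As a percentage of Rspo2-AAV 1 its level was 26.4% for Cyp2c69, 24.3% for Cyp3a16, 31.9% for Cyp2c40, 15.4% for Cyp3a41a, 30.8% for Cyp3a41b and 23.1% for Cyp3a44. It was 50.2% for Cyp2a4 and 98.6% for Cyp2g1. Xist in Rspo2-AAV 2 was 19.9% of that in Rspo2-AAV 1. The same library held Y-linked RNA near the level of the others. Its male-biased genes were high as well: Cyp2d9, a testosterone 16-alpha-hydroxylase, reached 709 FPKM there, against 8.44 for Rspo2-AAV 1 and 39.9 for control 3. The other 5 controls held 481 to 683 FPKM of Cyp2d9 and Rspo2-AAV 4 to 7 held 306 to 465, a log2 change of -0.65 ± 0.17 (limma adjusted p = 0.0342) in these 9 libraries and -0.76 ± 1.02 (adjusted p = 0.720) over all 12. Among the numbers 4 to 7 the change of Cyp2d9 was -0.65 with an adjusted p of 0.0696. What the composition of Rspo2-AAV 2 contributes to these values was not tested.

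**Figure D4:**
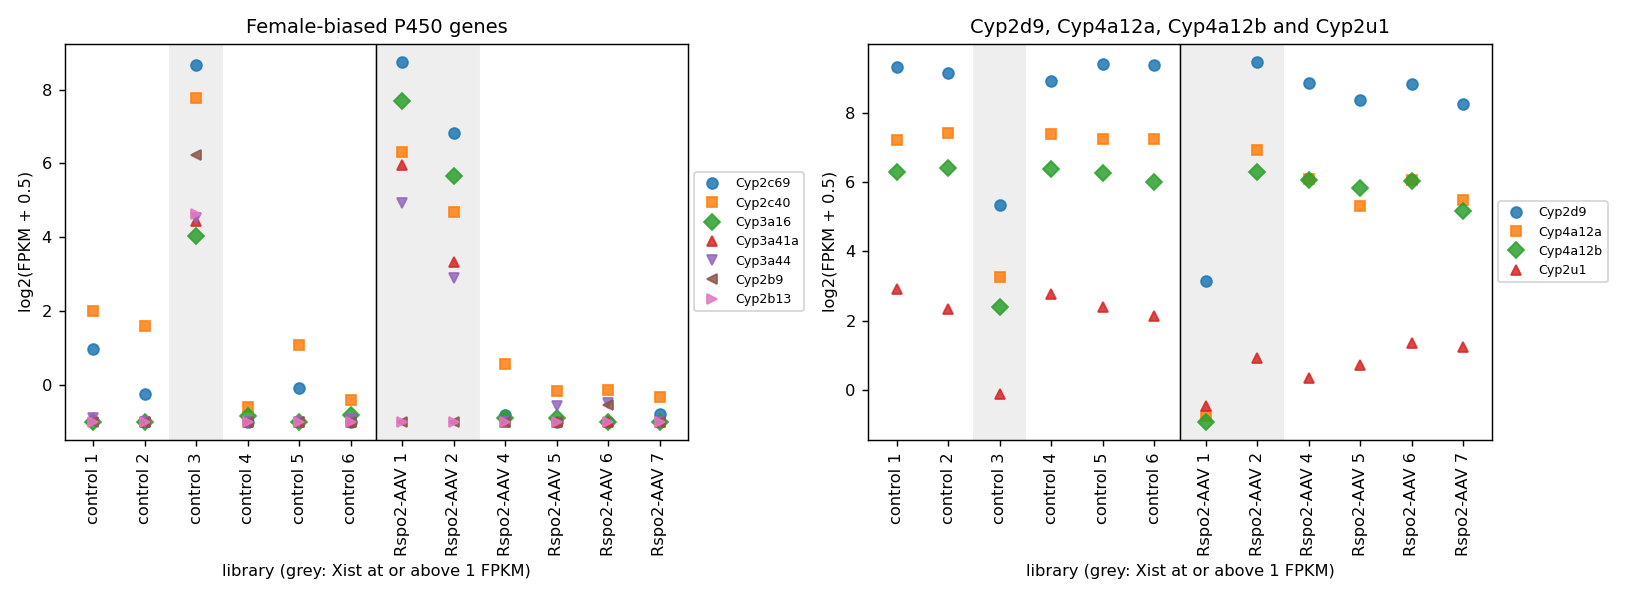
Log2(FPKM + 0.5) of 7 female-biased P450 genes (left) and of Cyp2d9, Cyp4a12a, Cyp4a12b and Cyp2u1 (right) in each library, with grey bands over the libraries with Xist at or above 1 FPKM and a vertical line between control and Rspo2-AAV. Cyp2b9 and Cyp2b13 are high in control 3 and at 0 in Rspo2-AAV 1 and 2; Rspo2-AAV 2 holds the other 5 female-biased genes together with high Cyp2d9, Cyp4a12a and Cyp4a12b.

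RefSeq gave a promoter for 62 of the 75 genes, taken at the start nearest the 5′ end of the gene in the expression table. That start lay 17680 bases from this end for Cyp2c29, 18940 for Cyp2d9, 15739 for Cyp4f39 and 9685 for Cyp1a1. For the others it was at most 388 bases away. In the 250 bases before the start, on both strands, the HNF4A letters CAAAGTCCA occurred in 9 of the 62 (14.5%), against 0.384% of 32851 promoters of the same length. The 9 were Cyp2c40, Cyp2c65, Cyp2c67, Cyp2c68, Cyp2c69, Cyp3a11, Cyp3a16, Cyp3a41a and Cyp3a41b. Many of these are copies of one another, so they are not separate occurrences. The TCF/LEF letters ATCAAAG, the motif of the factors that carry Wnt signals, were in 2 of 62 (3.23%; Cyp2c29 and Cyp2c39), against 3.21% of all. The STAT5 letters TTCNNNGAA were in 6.45% of the members and 7.02% of all, the AHR letters GCGTG in 19.4% and 28.2%, and the TATA box letters TATAAA in 37.1% and 12.4%. ATCAAAG and CAAAGTCCA can overlap in CAAAG. A match is a description of letters and not of binding.

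Sequences are printed for Cyp2c39, whose levels separate without control 3, and for Cyp2c69 and Cyp3a16, the female-biased genes with the highest levels in Rspo2-AAV 1. Capitals mark the motif matches (ATCAAAG, CAAAGTCCA or TATAAA).
Cyp2c39: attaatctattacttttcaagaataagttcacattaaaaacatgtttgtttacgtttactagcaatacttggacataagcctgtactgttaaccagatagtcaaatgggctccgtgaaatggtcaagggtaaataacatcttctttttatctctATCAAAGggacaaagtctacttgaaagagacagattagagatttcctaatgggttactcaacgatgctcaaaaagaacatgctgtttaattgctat
Cyp2c69: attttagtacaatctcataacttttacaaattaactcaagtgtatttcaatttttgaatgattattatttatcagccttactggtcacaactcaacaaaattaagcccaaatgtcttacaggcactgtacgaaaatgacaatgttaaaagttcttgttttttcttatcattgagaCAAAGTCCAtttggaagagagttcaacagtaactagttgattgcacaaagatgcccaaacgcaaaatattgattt
Cyp3a16: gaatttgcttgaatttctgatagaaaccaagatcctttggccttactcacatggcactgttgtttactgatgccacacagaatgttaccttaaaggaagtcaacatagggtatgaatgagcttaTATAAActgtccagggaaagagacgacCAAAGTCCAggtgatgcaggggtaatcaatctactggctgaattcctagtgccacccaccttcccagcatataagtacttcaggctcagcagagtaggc
They lie at chr19:39510572-39510821 (plus strand), chr19:39886770-39887019 (minus strand) and chr5:145469724-145469973 (minus strand) of GRCm38.p6. The Cyp2c39 window holds ATCAAAG at -96, the Cyp2c69 window CAAAGTCCA at -75, and the Cyp3a16 window CAAAGTCCA at -99 and TATAAA at -126.

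Few genes that serve the P450 system passed the test. Of 48 listed regulators, electron donors and genes of heme synthesis and breakdown, 46 were tested, and limma called 2 higher (2.55% of all genes) and 0 lower (2.65% of all genes). At an unadjusted p under 0.05, 5 of 46 were higher and 4 lower, near the shares over all genes (10.3% and 11.2%). Limma-voom on recovered reads gave 5 and 4 as well, with 9.96% and 11.4% of all genes. Ahr, the aryl hydrocarbon receptor, was at 4.26 to 13.3 FPKM in controls (median 9.31) and 11.2 to 22.4 in Rspo2-AAV libraries (median 18.1), a log2 change of 1.01 ± 0.27 (limma adjusted p = 0.0480). Rspo2-AAV 2 was its lowest Rspo2-AAV library and overlapped controls 3, 5 and 6. Blvrb, a biliverdin reductase, was at 32.6 to 58.3 FPKM in controls and 49.4 to 89.9 in Rspo2-AAV libraries (log2 change 0.64 ± 0.17, adjusted p = 0.0495). Both calls sat at the threshold: that of Ahr was lost in 8 of 12 fits that left out 1 library (adjusted p up to 0.113) and that of Blvrb in 11 (up to 0.106). The Blvrb level, also high in red cells, moved beside the erythroid markers given further on, whose part in it was not tested.

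The receptors that induce Cyp2b, Cyp3a and Cyp4a did not pass the test. Nr1i2 (PXR) changed by a log2 value of 0.00 ± 0.15, Nr1i3 (CAR) by 0.39 ± 0.28, Ppara by -0.14 ± 0.26 and Rxra, their common partner, by -0.11 ± 0.11. Hnf4a, a hepatocyte master regulator, was at 124 to 217 FPKM in controls and 123 to 253 in Rspo2-AAV libraries. Por, the reductase that feeds all microsomal P450s, was at 86.5 to 259 FPKM in controls and 92.1 to 275 in Rspo2-AAV libraries (log2 change 0.33 ± 0.31, limma adjusted p = 0.583), with control 3, Rspo2-AAV 1 and Rspo2-AAV 2 (213) highest. Cyb5a, an electron donor, changed by 0.37 ± 0.20 (adjusted p = 0.313) and Alas1, the first enzyme of heme synthesis, by 0.14 ± 0.36 (adjusted p = 0.872). In the 9 libraries with Xist under 1 FPKM the calls were Ahr (1.19) and Cyb5b (0.73) higher and Pgrmc1 (-0.51) and Nr1h4 (-0.59) lower. These calls, among 46 listed genes tested, stand beside 6.00% of all genes called higher and 6.75% called lower in that fit. They are no more frequent than over all genes.

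Markers of liver and other cells were read in the same libraries. The hepatocyte list (6 genes, none called) summed to 23399 to 46203 FPKM in controls and 18616 to 41722 in Rspo2-AAV libraries. Kupffer cell and macrophage markers were lower for 3 of 6 (sum 247 to 484 against 133 to 273), stellate markers for 2 of 6 (38.1 to 52.1 against 17.1 to 30.7), and erythroid markers were higher for 4 of 6 (97.4 to 354 against 229 to 1363). Over all genes, the fit of the 12 libraries called 2.65% lower and 2.55% higher. The macrophage and erythroid sums overlapped between the groups. The kidney list (Aqp2 at 0 throughout) summed to 6.89 FPKM in Rspo2-AAV 2, 0.779 in Rspo2-AAV 1 and at most 0.0197 elsewhere. Cholangiocyte markers, none called, summed to 17.3 to 31.1 in controls and 24.5 to 49.0 in Rspo2-AAV libraries, with Rspo2-AAV 2 highest, and no endothelial or adipocyte marker was called. Pancreatic acinar markers were highest in Rspo2-AAV 4 (sum 41128 FPKM), followed by Rspo2-AAV 5 (3454) and 6 (403), with at most 38.9 in the others. They made up 5.35% of the reads of Rspo2-AAV 4 and 0.477% of those of Rspo2-AAV 5, and none of the 9 passed the test. Without Rspo2-AAV 4 and 5, Cyp2a5 was called (1 higher) and neither Cyp2a12 nor Cyp2j5 was (0 lower), with 0.870% of all genes higher and 0.892% lower. At an unadjusted p under 0.05 that limma fit gave 5 of 50 members higher and 5 lower, near the 8.51% and 8.46% of all genes. The part of these cells in the P450 values was not tested.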

How the data were processed

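Bulk RNA-seq of liver was analysed in 12 libraries, 6 control and 6 Rspo2-AAV, grouped by their labels. The deposited table gives FPKM per gene and, from its own columns, gene length and GRCm38 position. Per the submitters' processing notes, the authors used the build GRCm38 with HISAT2 2.0.5, a read aligner, featureCounts 1.5.0-p3, a read counter, and DESeq2 1.20.0. The poly-A libraries were directional or not, per the labels' protocols; whether strand was used in counting is not given in the sources used here, so overlapping genes may share reads. FPKM times length gave whole reads for 100.0% of values (within 0.01). Tested genes had an average of 0.5 FPKM or more over the 12 libraries, and fits of fewer libraries kept that set of genes. Values as log2(FPKM + 0.5) entered limma 3.58.1 under R 4.3.3 (linear fit, moderated with a trend), with Benjamini-Hochberg adjustment and a threshold of 0.05. A fold change on this scale understates low genes. The procedure was tested on simulated data with independent noise in each gene and library. Those data hold none of the library differences described above, so the test does not cover them.

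Members and gene lists were chosen with earlier results of these data known. Genes named by rule were the called members (at least 1 FPKM in the higher group, up to 15 per direction), the most abundant member of each of 11 groups, the called pathway genes and 8 fixed regulators and partners. Other members were named after their values were seen. Alternatives changed the pseudocount (0.1 or 1), the filter, the scaling, the tool (limma-voom), the libraries and the covariates. Same-numbered samples were not paired, since their deviations from the group means correlated at -0.25 to 0.16 over 5 pairs and the labels tie no number to an animal or batch.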

Additional observations from a re-analysis of the deposited data

Results flagged for a closer look

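Some levels lay far from the other 5 libraries of their group, by a gap test that chance alone meets in about 1 in 20 groups. In controls, Cyp2b9 was at 74.0 FPKM in control 3 and at 0 in the others, Cyp4a12a was at 9.11 in control 3 and Cyp4v3 at 44.9 in control 3, both below the rest. Por was at 259 FPKM in control 3 and Cyb5a at 474 in control 1, above the other controls, and Alas1 at 214 in control 5, likewise above. In the Rspo2-AAV group, Cyb5a was at 696 FPKM in Rspo2-AAV 2, above the rest, and Cyp2b9 at 0.183 in Rspo2-AAV 6, with 0 in the other 5. Of the 8 values, 4 came from control 3.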

How the results depend on the processing

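Cyp2a5 kept its call in each setting except the numbers 1 to 3 alone. Over all 12 libraries 1 P450 gene was called higher and 2 lower. The count of higher genes was 5 without the Xist libraries, 2 with a term for them, 4 among the numbers 4 to 7, 0 among the numbers 1 to 3, 2 with a term for number set and 1 to 5 with each library left out in turn. The count of lower genes was 10, 3, 12, 0, 3 and 1 to 6 in the same order, 1 with no filter, 1 after rescaling to an equal sum and 0 without Rspo2-AAV 4 and 5. Without control 3, where only Rspo2-AAV libraries held Xist at or above 1 FPKM, it was 5 higher and 6 lower. Among the numbers 1 to 3, limma at an unadjusted p under 0.05 gave 5 of 50 higher and 0 lower, beside 4.02% and 3.09% of all genes. Of the pathway genes, 2 were called higher and 0 lower; the higher count was 1 with a pseudocount of 1, 0 with no filter, after rescaling, among the numbers 1 to 3 and without Rspo2-AAV 4 and 5, 1 with the Xist term and 0 to 1 with a library left out. The lower count was 3 among the numbers 4 to 7, 2 without the Xist libraries, 1 with the Xist term and 0 to 1 with a library left out.

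With the replicate number as a block, 3 P450 genes were called higher (Cyp2a5, Cyp2c39 and Cyp2c68) and 2 lower (Cyp2u1 and Cyp4v3). In that fit 0 pathway genes were called in either direction. Of 5 same-numbered pairs, 1 correlated best with its own number from both sides, control 4 and Rspo2-AAV 4 (0.082). Control 2 also correlated best with Rspo2-AAV 2 (0.053), but Rspo2-AAV 2 correlated best with control 1 (0.27). Cyp2b9 changed sign with the block (0.090), as did Hnf4a (0.12). The block leaves control 3 and Rspo2-AAV 7 out of the contrast, since neither has a partner of its number.

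Several small log2 changes changed sign, and the cause was not tested. Among the numbers 4 to 7 they were 0.11 for Cyp2b9, -0.12 for Nr1i2, -0.030 for Nr1i3 and -0.58 for Alas1. Without the Xist libraries they were 0.11 for Cyp2b9, -0.048 for Nr1i2 and -0.31 for Alas1, and Nr1i2 was -0.067 with the Xist term. Among the numbers 1 to 3 they were 0.20 for Cyp2c50, 0.18 for Cyp2d26, 0.95 for Cyp3a11, -0.20 for Cyp2r1, 0.024 for Ppara and 0.21 for Hnf4a, and Hnf4a was 0.0087 with the number-set term. Without Rspo2-AAV 4 and 5 they were 0.0069 for Cyp2c50, 0.029 for Cyp3a11 and -0.043 for Cyp2r1. With a library left out the ranges were -1.37 to 0.075 for Cyp2b9, -0.14 to 0.016 for Cyp2c50, -0.31 to 0.0028 for Cyp3a11, -0.10 to 0.077 for Nr1i2, -0.32 to 0.0037 for Ppara, -0.15 to 0.075 for Hnf4a and -0.081 to 0.35 for Alas1. Depth limits the genes under 0.5 FPKM, such as Cyp2b10.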
